A study of Mus musculus with 3 samples.

Results

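Insulin-like growth factor 1 and the proteins that receive or bind it were followed through the repair of mouse skin wounds. The set was chosen by name and held 9 genes of the 32285 in the count tables: the ligand *Igf1*, the receptors *Igf1r* and *Igf2r*, and the binding proteins *Igfbp2*, *Igfbp3*, *Igfbp4*, *Igfbp5*, *Igfbp6* and *Igfbp7*. Each gene was matched by its Ensembl ID, and all 9 were found in every library. Their transcripts were counted by single-cell RNA sequencing (scRNA-Seq) of wounds at Days 3, 7, and 14 post injury.

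The mice were age-matched C57BL/6J males of 7 to 12 weeks. They carried no transgene or deletion and received full-thickness dorsal wounds made with a 4-mm biopsy punch. Wound tissue pooled from 4 samples was dissociated with enzymes, red blood cells were lysed, and the remaining cells were loaded without sorting. The days were thus the only groups, there was 1 library per day, and uninjured skin was not analysed here, so day and library cannot be told apart and no p-value is given. Intervals are 95% and cover counting error only.

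IGF1 is a secreted hormone and local growth factor that signals through the tyrosine kinase receptor IGF1R to drive growth, survival and protein synthesis. IGF2R, the cation-independent mannose 6-phosphate receptor, takes up IGF2 for breakdown and carries lysosomal enzymes. The IGF-binding proteins hold IGFs in the tissue, block or release them at the receptor and are cut by secreted proteases, while IGFBP7 binds IGFs only weakly and is known as a protein of vessel walls. In skin, dermal fibroblasts and macrophages are known sources of IGF1, and keratinocytes respond to it.

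The tables of Days 3, 7, and 14 held 5158, 22924, and 16611 barcodes with 38133650, 120940799, and 112713257 unique molecular identifiers (UMIs, each counting 1 captured transcript), and 4360, 19590, and 13510 cells remained after filtering. Between 62 and 154 barcodes of a library also occurred in another library. Cells were put into classes by clusters and marker genes. These were standard markers, except that the list of the Bmp4 mesenchymal-like class (below) followed the authors' own clusters. The members and 22 other genes of the pathway were not used to cluster. A class is written "X-like" since it rests on markers. The level (CPM) is the UMIs of a gene summed over the class and scaled to 1000000 UMIs of that class, and no gene is compared with another by level.

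The 3 classes that most results turn on changed in size and depth. Fibroblast-like cells numbered 396, 5962, and 6854 on Days 3, 7, and 14, with median depths of 44278, 10262.5, and 10100 UMIs. Macrophage-like cells numbered 2716, 9578, and 3213 with medians of 4054.5, 2523, and 3482 UMIs. Neutrophil-like cells numbered 874, 1655, and 24, with medians of 1223.5, 711, and 986 UMIs. The 8 fibroblast markers, such as *Col1a1*, *Dcn* and *Pdgfra*, summed to 68050, 115864, and 141974 CPM in fibroblast-like cells on the 3 days and to 420, 3816, and 5016 CPM in macrophage-like cells. Fibroblast transcripts found in macrophage-like cells therefore moved with the day as well, and the class-wide macrophage levels of the members other than *Igfbp2* are set against *Col1a1* in the same cells below.

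The classes were also not made of one kind of cell over time. Of the 396 fibroblast-like cells of Day 3, 362 lay in a single cluster led by *Car4*, *Cxcl5* and *Nos2*, while most Day 14 cells lay in other clusters, the largest with 3507 cells and led by *Mgp*, *Hmcn2* and *Fbln7*. Of the 2716 macrophage-like cells of Day 3, 2416 lay in a cluster led by *Chil3*, *Sirpb1c* and *Cxcr4*, which held 51 cells on Day 7 and 0 on Day 14. Among these clusters of the 3 libraries together, one fibroblast-like (2284 cells, led by *Tnn*, *Prss35* and *Tnc*) and one macrophage-like (850 cells, led by *Retnla*, *Ear2* and *Lyz1*) had more markers of another class than of their own among their leading genes. In each this was a single gene (*Crabp1* and *Cd2*) beside no marker of their own. Their own class still scored highest (4.83 against 1.84 for the next class, and 4.43 against 2.14). Counts without these clusters are given below.

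The 9 genes lie on 7 chromosomes of mm10. *Igf1* is at chr10:87858265-87937042, *Igf1r* at chr7:67952827-68233668 and *Igf2r* at chr17:12682406-12769664. *Igfbp2* (chr1:72824503-72852474, plus strand) and *Igfbp5* (chr1:72857932-72874884, minus strand) are neighbors whose 3′ ends lie 5.458 kb apart. *Igfbp3* is at chr11:7206086-7213923, beside the hepatic binding protein gene *Igfbp1* at 3.54 kb, *Igfbp4* at chr11:99041244-99054392, *Igfbp6* at chr15:102144362-102149511 and *Igfbp7* at chr5:77349240-77408041. Among them, 3 share bases with a gene on the opposite strand: *Igf1* with *Igf1os* (5117 bases), *Igf2r* with *Airn* (28354 bases), and *Igfbp7* with *Gm34648* (7085 bases) and *Polr2b* (85 bases).

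The 250 bases before the start site are shown for 4 of the 5 binding protein genes whose fibroblast-like levels were past 2-fold higher from one day to the next, since these 4 span from 49.6% to 74% G and C (RefSeq, GRCm38.p6, written 5′ to 3′ on the strand of the gene). Capitals mark matches on either strand to the TATA box (TATAAA), the CCAAT box, the GC box (GGGCGG) or the E-box (CACGTG). Sites for STAT5 (TTCNNNGAA) and FOXO factors (TGTTTAC) were searched likewise.
Igfbp2 (chr1:72824230-72824479, plus strand): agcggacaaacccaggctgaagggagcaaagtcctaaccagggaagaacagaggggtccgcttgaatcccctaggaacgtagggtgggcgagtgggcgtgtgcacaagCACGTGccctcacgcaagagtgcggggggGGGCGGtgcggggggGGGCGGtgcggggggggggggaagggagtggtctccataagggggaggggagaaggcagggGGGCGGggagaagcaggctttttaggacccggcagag
Igfbp5 (chr1:72874866-72875115, minus strand): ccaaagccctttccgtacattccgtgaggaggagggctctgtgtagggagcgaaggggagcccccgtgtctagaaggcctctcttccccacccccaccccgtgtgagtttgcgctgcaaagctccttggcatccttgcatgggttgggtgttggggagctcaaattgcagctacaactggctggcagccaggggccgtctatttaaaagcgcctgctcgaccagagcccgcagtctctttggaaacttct
Igfbp6 (chr15:102143936-102144185, plus strand): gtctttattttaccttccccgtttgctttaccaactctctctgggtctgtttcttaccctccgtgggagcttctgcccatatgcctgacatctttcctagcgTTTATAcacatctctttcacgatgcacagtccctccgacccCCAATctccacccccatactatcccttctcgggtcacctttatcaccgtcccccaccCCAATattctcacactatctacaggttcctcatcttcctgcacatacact
Igfbp7 (chr5:77408046-77408295, minus strand): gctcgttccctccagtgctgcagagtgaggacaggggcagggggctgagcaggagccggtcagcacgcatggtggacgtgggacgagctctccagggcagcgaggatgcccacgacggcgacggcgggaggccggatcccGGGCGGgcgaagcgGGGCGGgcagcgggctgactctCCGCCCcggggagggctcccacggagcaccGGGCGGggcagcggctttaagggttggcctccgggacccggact
The *Igfbp7* window had 74% G and C, 26 CpG and GC boxes at −110, −96, −74 and −44. The *Igfbp6* window had 49.6% G and C, 7 CpG, CCAAT at −107 and −50 and a TATA match at −148, and the *Igfbp2* window shown had 3 GC boxes and an E-box. A second *Igfbp2* window, of another start site (chr1:72825137-72825386, 56.4% G and C, not shown), held none of the letters searched. None of these letters was in the *Igfbp5* window. Of 32851 such windows in the mouse genome, 32.7% held a GC box, 33.8% CCAAT, 12.4% TATAAA 6.02% the E-box, 7.02% the STAT5 letters and 3.17% the FOXO letters, and the median was 52.4% G and C. The last 2 were in none of the 10 windows of the members. The GC boxes of the *Igfbp2* window shown were at −113, −98 and −37, beside those of *Igfbp7* given above. No arrangement was common to all the windows shown, and a match is a description, not a site.

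*Igf1*, the ligand, was found mainly in fibroblast-like and macrophage-like cells. In fibroblast-like cells it was at 88.4 CPM (84.3–92.8) on Day 3, 356 CPM (352–361) on Day 7 and 535 CPM (529–540) on Day 14. In macrophage-like cells it was at 43.6 (40.0–47.5), 313 (307–320) and 333 CPM (323–344). Both classes were thus lowest on Day 3, and the fibroblast-like level was higher again on Day 14. From Day 3 to Day 7 the level was 4.03-fold higher in fibroblast-like cells (log2 ratio 2.01, 1.94–2.08) and 7.18-fold higher in macrophage-like cells (log2 ratio 2.84, 2.72–2.97). From Day 7 to Day 14 the log2 ratios were 0.59 and 0.09. Within the macrophage-like clusters that held at least 50 cells on both Days 3 and 7, the Day 7 value was the higher one in each. *Igf1* went from 39.3 to 143 CPM in cells led by *Chil3* and from 101 to 300 CPM in those led by *Syngr1*. It went from 29.7 to 37.6 CPM in those led by *Ly6c2* and from 10.9 to 282 CPM in those led by *Gm26917*. The *Ly6c2* and *Gm26917* clusters held only 58 and 124 cells on Day 3, and their Day 3 values rest on few UMIs. How far the difference varied between clusters therefore cannot be told. Drawn down to 500 UMIs per cell, 3.28%, 15.8%, and 19.7% of fibroblast-like cells and 1.66%, 13.1%, and 15.3% of macrophage-like cells held an *Igf1* UMI (57.6%, 68.7%, and 76.4%, and 8.51%, 38.6%, and 51.8% at full depth), beside 1.09% of pericyte-like cells on Day 7 and 0.703% on Day 14.

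The *Igf1* UMIs of macrophage-like cells were not in the ratio of the fibroblast transcripts found there. Per 1000 *Col1a1* UMIs there were 220 *Igf1* UMIs in macrophage-like cells on Day 7 against 8.62 in fibroblast-like cells, and 163 against 10.3 on Day 14. Fibroblast-like cells carried 75.9%, 71.3%, and 87.7% of all *Igf1* UMIs on the 3 days and macrophage-like cells 23.7%, 26.5%, and 9.44%. These shares follow cell recovery as well as level, since macrophage-like cells were 62.3% of all cells on Day 3 and 23.8% on Day 14. In other classes on Day 14, *Igf1* was at 224 CPM (204–246) in Bmp4 mesenchymal-like cells (described below), 96.0 CPM (79.9–114) in endothelial-like cells and 22.7 CPM (16.1–31.0) in pericyte-like cells.

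*Igf1r*, the signaling receptor, stood out in neutrophil-like cells. There it was at 1001 CPM (944–1059) on Day 3 and 688 CPM (643–735) on Day 7. On Day 14 only 4 UMIs in 24 cells were left to measure it, which gave 138 CPM (37.5–352). In fibroblast-like cells it was at 98.6 CPM (94.2–103), 59.2 CPM (57.4–61.2) and 51.9 CPM (50.2–53.6) on the 3 days, and in macrophage-like cells at 44.7, 37.2, and 34.3 CPM (297, 26.1, and 16.8 UMIs per 1000 *Col1a1* UMIs, against 4.35, 1.43, and 0.995 in fibroblast-like cells). The neutrophil-like level thus lay above both other classes on Days 3 and 7, with intervals that did not touch. Drawn down to 500 UMIs, 32.4% of neutrophil-like cells (29.3–35.6) held an *Igf1r* UMI on Day 3 and 24.7% (22.7–26.9) on Day 7, beside 5.81% and 3.37% of fibroblast-like cells. At full depth the neutrophil-like shares were 50.2% and 32.3%.

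Neutrophil-like cells were 20.05% of the Day 3 cells and held 31.6% of that day's *Igf1r* UMIs. The 8 fibroblast markers summed to 849 and 10495 CPM in these cells on Days 3 and 7. Per 1000 *Col1a1* UMIs they held 3642 *Igf1r* UMIs on Day 3 and 178 on Day 7, against 4.35 and 1.43 in fibroblast-like cells. Bmp4 mesenchymal-like cells followed on Day 7 at 360 CPM (255–494), and were at 305 CPM (281–329) on Day 14, a level that the wide Day 14 interval of neutrophil-like cells includes. On Day 14 pericyte-like (124 CPM, 108–142), Schwann-like (118 CPM, 89.6–153) and endothelial-like cells (93.7 CPM, 77.8–112) followed with overlapping intervals, and epithelial-like cells were at 64.6 CPM (57.5–72.4).

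*Igf2r*, the scavenging receptor, was higher in fibroblast-like than in macrophage-like cells on every day. It was at 120, 157, and 106 CPM in fibroblast-like cells and at 52.6 (48.6–56.8), 41.1 (38.7–43.7) and 18.0 CPM (15.7–20.5) in macrophage-like cells on Days 3, 7, and 14. Per 1000 *Col1a1* UMIs, macrophage-like cells held 350, 28.8, and 8.78 *Igf2r* UMIs, against 5.31, 3.801, and 2.04 in fibroblast-like cells. In macrophage-like cells the Day 14 level was thus the lowest, 2.29-fold below Day 7 (log2 ratio −1.19, −1.41 to −0.98). Pericyte-like cells had the highest level of Day 7, at 262 CPM (233–293), and were at 88.5 CPM (74.98–104) on Day 14, a log2 ratio of −1.56 (−1.85 to −1.28). *Igf2r* is imprinted in the mouse, and the overlapping *Airn* is the noncoding RNA of that locus, so reads on the 2 strands must be kept apart for its count.

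*Igfbp2* was low over all recovered cells until Day 14, at 0.0867, 2.63, and 56.1 CPM on the 3 days. Fibroblast-like cells held 3 UMIs on Day 3 (0.157 CPM, 0.0323–0.457), 244 on Day 7 (3.86 CPM, 3.39–4.38) and 5258 on Day 14 (74.9 CPM, 72.9–76.9). The Day 14 level was 19.4-fold above Day 7 (log2 ratio 4.28, 4.09–4.47). The gene reached the mean of 10 CPM only through Day 14, so it had to differ once it was counted among the genes compared. Only 7.16% of the Day 14 fibroblast-like cells held a UMI (2.09% at 500 UMIs), beside 1.40% of macrophage-like cells at their lower depth, and 96.8% of that day's *Igfbp2* UMIs were in fibroblast-like cells. Epithelial-like cells were at 19.8 CPM (8.55–39.0) on Day 7, from only 49 cells, and at 15.1 CPM (11.7–19.1) on Day 14.

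*Igfbp3*, the main carrier of IGF1 in blood, had its highest level outside the fibroblast-like class. A small class named here by 8 markers, among them *Bmp4*, *Prlr*, *Wif1*, *Lef1* and *Rspo3*, held 62 cells on Day 7 and 711 on Day 14. In these Bmp4 mesenchymal-like cells *Igfbp3* was at 9769 CPM (9181–10384) and 7614 CPM (7495–7734). Drawn down to 500 UMIs, 91.9% (82.2–97.3) and 86.5% (83.8–88.9) of these cells held an *Igfbp3* UMI, beside 5.40% of Day 14 fibroblast-like cells, and at full depth 96.8% and 92.7% did. The authors drew up these markers on the present samples, so the list is not independent evidence of the class, and *Igfbp3* was taken out of it and out of the clustering. The class was 5.26% of the Day 14 cells and held 15677 of the 26636 *Igfbp3* UMIs of that day, or 58.9%.

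Fibroblast-like cells were far lower and had another order of days for *Igfbp3*. They were at 233 CPM (226–240) on Day 3, 72.1 CPM (70.1–74.3) on Day 7 and 131 CPM (129–134) on Day 14, so the lowest level was on Day 7. The log2 ratio from Day 3 to Day 7 was −1.69 (−1.75 to −1.63), and from Day 7 to Day 14 it was 0.86. Endothelial-like cells were at 1702 CPM on Day 3 (331 UMIs from only 12 cells), 391 CPM (362–421) on Day 7 and 153 CPM (132–176) on Day 14, each below the day before. The 691 epithelial-like cells of Day 14 were at 202 CPM, above both of these classes on that day. In the whole library, where all cells are summed, *Igfbp3* was at 143, 68.4, and 275 CPM. Its order of days there, highest on Day 14, was that of neither fibroblast-like nor endothelial-like cells.

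*Igfbp4*, which binds IGF1 until the protease PAPPA cuts it, was found in fibroblast-like and macrophage-like cells, like *Igf1*, but also in other classes. On Days 7 and 14 endothelial-like cells were at 404 and 245 CPM and Bmp4 mesenchymal-like cells at 332 and 329 CPM. Pericyte-like cells were at 204 and 270 CPM. On Days 3, 7, and 14 *Igfbp4* was at 226, 590 (584–596) and 443 CPM (438–448) in fibroblast-like cells. In macrophage-like cells it was at 93.8 (88.4–99.4), 204 (199–210) and 217 CPM (209–225). Both of these classes were lowest on Day 3. The Day 7 level was 2.61-fold above Day 3 in fibroblast-like cells (log2 ratio 1.38) and 2.18-fold in macrophage-like cells (log2 ratio 1.12). The log2 ratio in fibroblast-like cells was 0.43 when only cells of 2000 to 30000 UMIs were counted, a limit that the median Day 3 cell exceeded. Within the macrophage-like clusters given for *Igf1*, *Igfbp4* went from 94.1 to 99.1 CPM (led by *Chil3*) and from 48.0 to 157 CPM (*Syngr1*) between Days 3 and 7. It went from 19.8 to 42.9 CPM in cells led by *Ly6c2* and from 196 to 217 CPM in those led by *Gm26917*. As for *Igf1*, the Day 3 values of the *Ly6c2* and *Gm26917* clusters (58 and 124 cells) rest on few UMIs. Per 1000 *Col1a1* UMIs, macrophage-like cells held 143 *Igfbp4* UMIs on Day 7 and 106 on Day 14, against 14.3 and 8.50 in fibroblast-like cells.

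*Igfbp5*, which binds to extracellular matrix, was at 87.0 CPM (82.9–91.3) on Day 3, 906 CPM (899–914) on Day 7 and 1067 CPM (1059–1074) on Day 14 in fibroblast-like cells. Most of the difference lay between Days 3 and 7, at 10.4-fold (log2 ratio 3.38, 3.31–3.45), against a log2 ratio of 0.24 between Days 7 and 14. Pericyte-like cells went from 817 CPM (766–871) on Day 7 to 1937 CPM (1872–2004) on Day 14, a log2 ratio of 1.24. Fibroblast-like cells nevertheless carried 93.1% to 99.2% of the *Igfbp5* UMIs of each day.

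*Igfbp6*, which prefers IGF2 to IGF1, was the member most restricted to fibroblast-like cells on Day 14, with 98.3% of its UMIs there. In these cells it was at 167 CPM (161–172), 578 CPM (572–584) and 1192 CPM (1183–1200) on the 3 days, higher on each later day. The ratios were 3.47-fold from Day 3 to Day 7 (log2 ratio 1.80) and 2.06-fold from Day 7 to Day 14 (log2 ratio 1.04, 1.03–1.06). The latter lies just past 2-fold and ran from 0.79 to 1.19 over the alternatives.

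*Igfbp7* was highest in vessel cells. On Day 14 it was at 3658 CPM (3555–3764) in endothelial-like cells, 3215 CPM (3130–3301) in pericyte-like cells, 1866 CPM (1748–1991) in Schwann-like cells and 1148 CPM (1141–1156) in fibroblast-like cells. No 2 of these 4 intervals overlapped. On Day 7 the endothelial-like (1722 CPM, 1661–1784) and pericyte-like levels (1749 CPM, 1674–1826) overlapped, and both lay above the 480 CPM (475–486) of fibroblast-like cells. In fibroblast-like cells it was at 190 CPM on Day 3 and was higher on each later day, 2.53-fold from Day 3 to Day 7 (log2 ratio 1.34) and 2.39-fold from Day 7 to Day 14 (log2 ratio 1.26, 1.24–1.28). Fibroblast-like cells, which were more numerous and had a higher median depth, still carried 85.3% of the Day 14 *Igfbp7* UMIs, beside 5.84% in pericyte-like and 5.04% in endothelial-like cells.

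**Figure D1:**
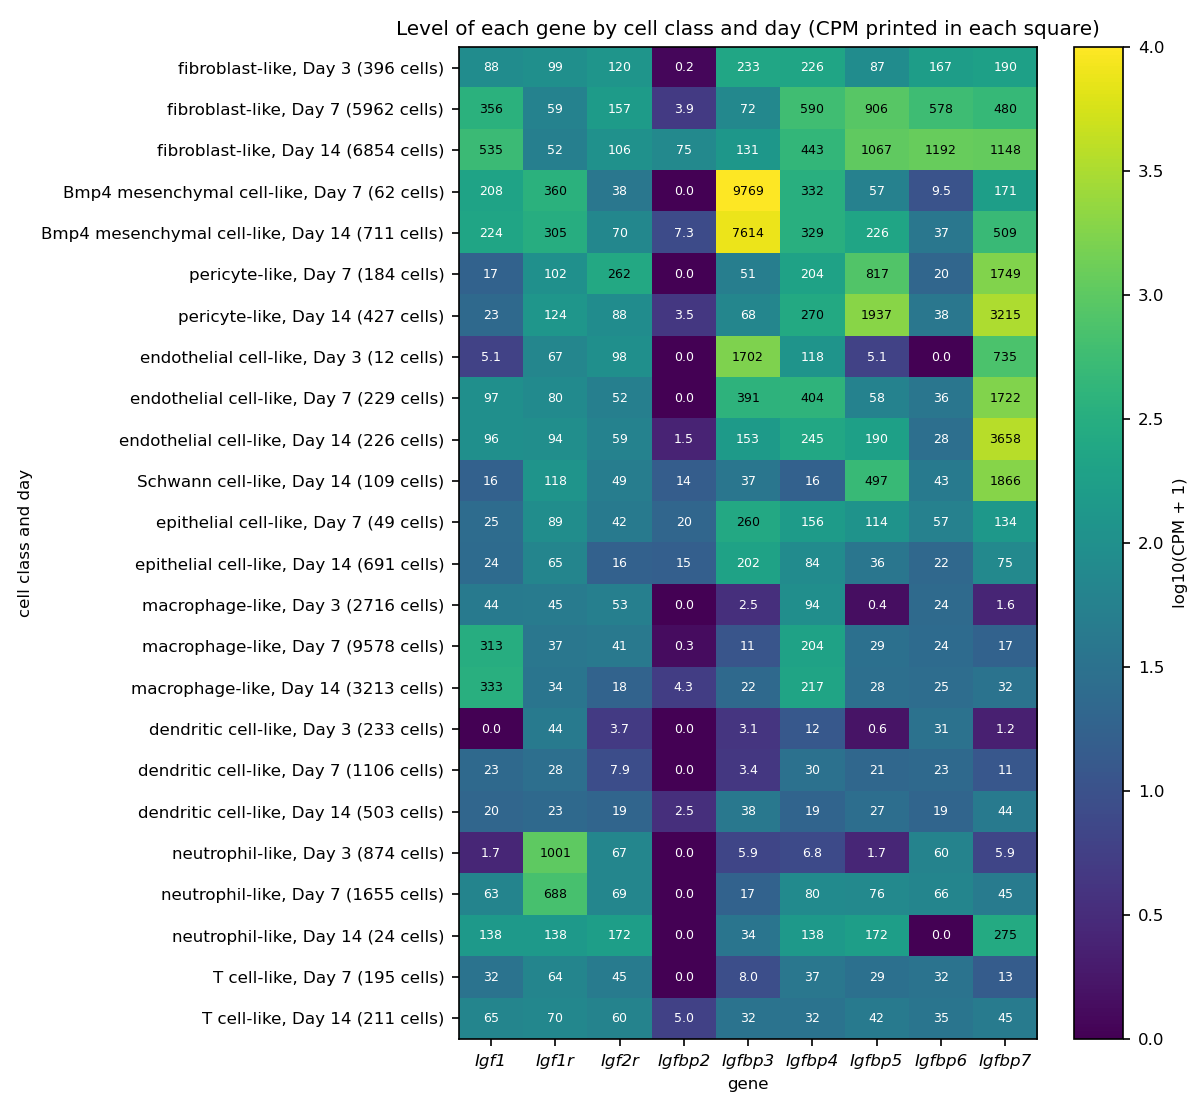
Level of each gene in CPM (number in each square, color on a log10 scale of CPM + 1) in each cell class and day with at least 10 cells. Squares that stand out within their column are *Igfbp3* in Bmp4 mesenchymal-like cells (9769 and 7614 CPM), *Igfbp7* in endothelial-like and pericyte-like cells, and *Igf1r* in neutrophil-like cells (1001 and 688 CPM).

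In macrophage-like cells the remaining binding proteins lay close to the ratio to *Col1a1* seen in fibroblast-like cells on Day 7, and below it on Day 14. On Day 7 there were 20.4 *Igfbp5*, 16.8 *Igfbp6* and 11.98 *Igfbp7* UMIs per 1000 *Col1a1* UMIs in macrophage-like cells, against 21.9, 14.0, and 11.6 in fibroblast-like cells. On Day 14 the values were 13.9, 12.5, and 15.9 against 20.5, 22.9, and 22.02. The Day 7 intervals of *Igfbp5* and *Igfbp7* overlapped between the classes, while that of *Igfbp6* in macrophage-like cells (15.6–18.2) lay above the fibroblast-like one (13.8–14.1). The levels of the 3 genes on these days were 17.1 to 32.5 CPM. On Day 3 the 3 genes parted: *Igfbp5* was at 0.413 CPM and *Igfbp7* at 1.57 CPM in macrophage-like cells, while *Igfbp6* was at 23.5 CPM (20.9–26.4). Per 1000 *Col1a1* UMIs, *Igfbp6* was then at 156 in macrophage-like, 221 in dendritic-like and 219 in neutrophil-like cells against 7.35 in fibroblast-like cells. *Igfbp6* in macrophage-like cells was at 24.0 CPM on Day 7 and 25.5 CPM on Day 14, close to its Day 3 level, while *Col1a1* there was at 150, 1427, and 2047 CPM. Its log2 ratio from Day 3 to Day 7 was 0.03, and −2.42 once the fibroblast-like profile, scaled to *Col1a1*, was subtracted.

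The comparison of Day 7 with Day 3 in fibroblast-like cells asked which genes differed between early and mid repair. Of the 9 members, 8 reached a mean of 10 CPM, and 5 of these were at least 2-fold higher on Day 7 (*Igf1*, *Igfbp4*, *Igfbp5*, *Igfbp6*, *Igfbp7*), where 4.44% of all 7740 genes compared were. One, *Igfbp3*, was at least 2-fold lower, where 8.99% of all genes were. The median log2 ratio was 1.36 over the members and −0.21 over all genes. From Day 7 to Day 14, 3 of 9 were at least 2-fold higher (*Igfbp2*, *Igfbp6*, *Igfbp7*; 2.3% of 7298 genes) and none at least 2-fold lower (3.56% of genes), with medians of 0.59 and −0.15. Of these 3, *Igfbp2* reached the mean of 10 CPM only through Day 14, so it had to differ. Without the cluster led by *Tnn*, the same 6 genes were past 2-fold from Day 3 to Day 7, while from Day 7 to Day 14 *Igfbp2* and *Igfbp7* were and *Igfbp6* had a log2 ratio of 0.79.

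In macrophage-like cells, 6 members reached the mean of 10 CPM from Day 3 to Day 7, and 3 were at least 2-fold higher (*Igf1*, *Igfbp4*, *Igfbp5*; 2.34% of 7233 genes) and none at least 2-fold lower (5.3% of genes). *Igfbp5* passed only through Day 7 (5 UMIs on Day 3, 775 on Day 7) and lay near the fibroblast-like ratio to *Col1a1* on Day 7. Once the fibroblast-like profile was subtracted, no *Igfbp5* ratio was left, and the 3 members past 2-fold were *Igf1*, *Igfbp4* and, lower, *Igfbp6*. After this subtraction *Igfbp6* reached the mean of 10 CPM only through Day 3, so it had to differ. From Day 7 to Day 14, 1 of 8 was at least 2-fold higher (*Igfbp3*, 10.5 to 22.4 CPM; 2.43% of 7123 genes) and 1 at least 2-fold lower (*Igf2r*; 3.36% of genes). *Igfbp3* was at 7.38 and 10.96 UMIs per 1000 *Col1a1* UMIs in macrophage-like cells on these days, against 1.75 and 2.52 in fibroblast-like cells. On Day 7 the 961 low-depth cells led by *Postn* (below) held 147 *Igfbp3* UMIs, at 142 CPM, and no other macrophage-like cluster of that day was above 9.31 CPM. The fibroblast-like ratio also leaves out Bmp4 mesenchymal-like cells, which held most *Igfbp3* UMIs of Day 14. When only cells of 2000 to 30000 UMIs were counted, *Igf2r* alone was past 2-fold, and without the cluster led by *Retnla* 3 members were (*Igf2r* at −1.65, *Igfbp3* and *Igfbp7*). The medians over the members were 0.58 and 0.09, beside −0.14 and −0.11 over all genes.

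**Figure D2:**
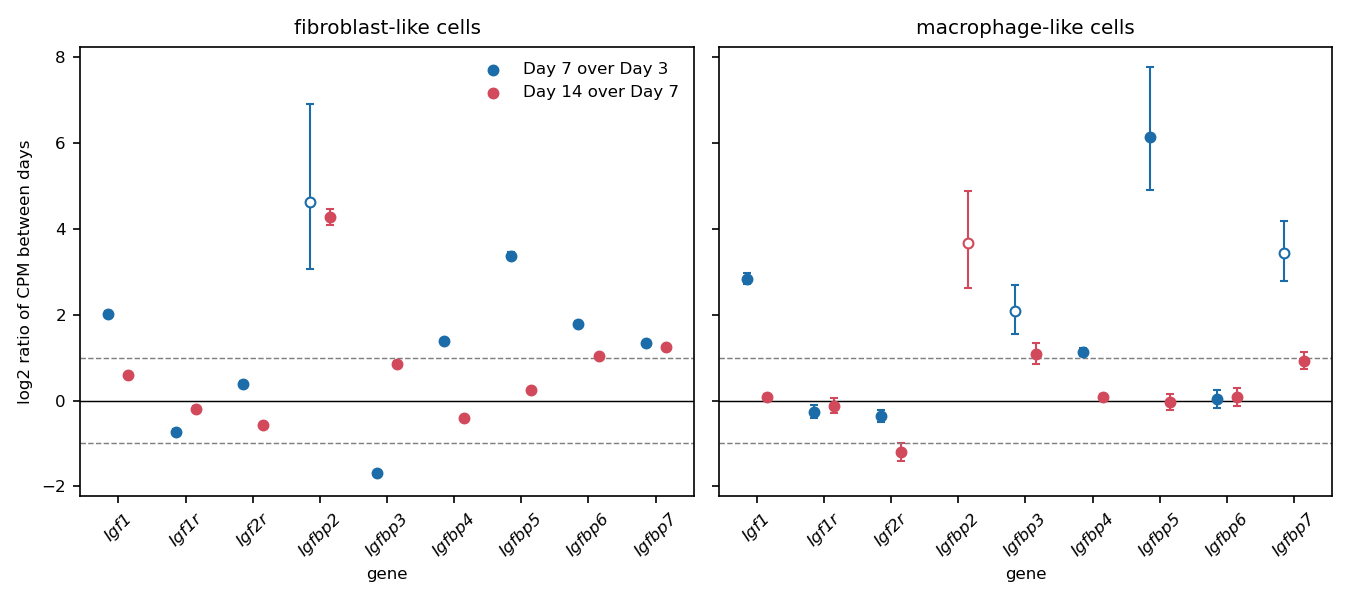
Log2 ratio of CPM between days for each gene in fibroblast-like (left) and macrophage-like cells (right), with 95% intervals for counting error; dashed lines mark 2-fold and open points a mean below 10 CPM. In fibroblast-like cells *Igfbp2* has the highest ratio of Day 14 over Day 7 (4.28) and *Igfbp3* the lowest of Day 7 over Day 3 (−1.69), and in macrophage-like cells *Igf2r* is the lowest (−1.19). *Igfbp2* reached a mean of 10 CPM only through Day 14.

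Fibroblast-like and macrophage-like cells of the same library were compared next, which removes the difference between libraries. On Day 3, 8 of 8 members with a mean of 10 CPM were at least 2-fold higher in fibroblast-like cells, where 24.8% of all 8120 genes were. On Day 7, 6 of 8 were (19.5% of 7924 genes) and on Day 14, 7 of 9 (19.5% of 7493 genes). *Igfbp3*, *Igfbp5* and *Igfbp7* on Day 3 (2.48 CPM or less in macrophage-like cells) and *Igfbp2* on Day 14 (4.29 CPM) passed only through fibroblast-like cells, so they had to differ. The 2 members that were closest between the classes were *Igf1*, with log2 ratios of 1.02, 0.19, and 0.68 on the 3 days, and *Igf1r*, with 1.14, 0.67, and 0.60. For *Igf2r* the log2 ratio was 1.20, 1.93, and 2.56, wider on each later day. Without the clusters led by *Tnn* and by *Retnla*, 6 members were past 2-fold on Day 14, and *Igfbp4* was at 0.62.

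**Figure D3:**
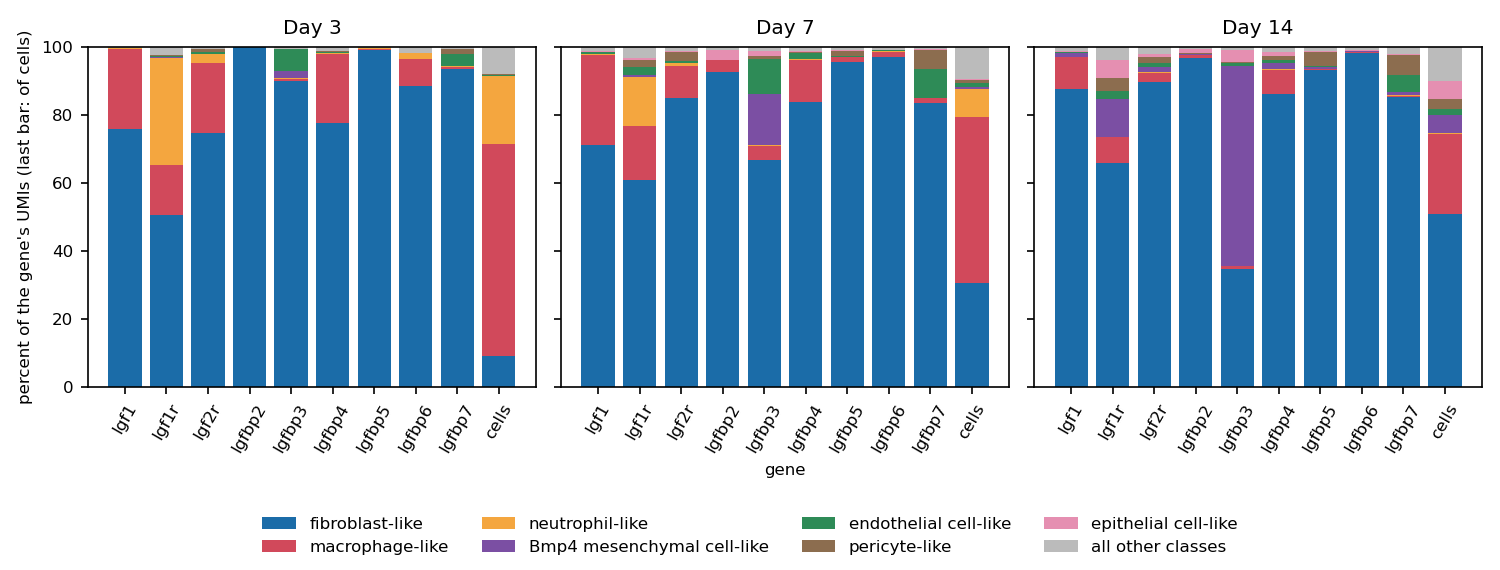
Percent of the UMIs of each gene that came from each cell class on each day, with the percent of cells as the last bar. Fibroblast-like cells hold most UMIs of 8 genes on Day 14 and of all 9 on Days 3 and 7; the exception is *Igfbp3* on Day 14, with 58.9% in Bmp4 mesenchymal-like cells.

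Within the fibroblast-like class the levels of the binding proteins differed between clusters, which were made for each day without the members. There was, among the 11 of Day 14 with at least 50 cells, 1402 CPM of *Igfbp2* in 108 cells led by *Prss35*, *Crabp1* and *Tnn*, 290 CPM in 727 cells led by *Gal*, *Wfdc12* and *Aldh3a1*, and 153 CPM in 611 cells led by *Enpp2* and *Lepr*. A further 849 cells led by *Thbs4*, *Fmod* and *Col8a1* were at 38.8 CPM, and the other 7 clusters were at 1.56 to 25.4 CPM. The *Gal* cluster was 10.6% of the class and held 46.2% of its *Igfbp2* UMIs, and the *Prss35* cluster was 1.58% and held 29.1%. *Crabp1* and *Enpp2*, which lead 2 of these clusters, are also among the 8 markers of the Bmp4 mesenchymal-like class, in which *Igfbp2* was at 7.28 CPM (4.08–12.02).

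Other members had their highest Day 14 levels elsewhere. *Igfbp5* was at 3170 CPM in the cluster led by *Smpd3* and *Dmkn* and at 2477 CPM in that led by *Dact2* and *Akr1c18*. *Igfbp7* (259 and 203 CPM) and *Igf1* (124 and 109 CPM) were low in both. *Igfbp6* (2616 CPM), *Igfbp7* (2006 CPM) and *Igfbp4* (1416 CPM) were highest in 365 cells led by *Cldn1*, *Itga6* and *Crabp2*. *Igfbp4* was at 14.6 CPM, its lowest level, in the *Gal* cluster. *Igf1* was highest, at 747 CPM (734–761), in the largest cluster, led by *Gdf10* and *Ccn2*, with the 849 cells led by *Thbs4* close to it at 725 CPM. The receptors varied least, from 29.7 to 84.0 CPM for *Igf1r* and from 56.9 to 158 CPM for *Igf2r*.

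On Day 7 there were 10 fibroblast-like clusters. Among them, 191 cells were led by the neutrophil markers *S100a9* and *S100a8*, and 211 cells of low depth by the macrophage marker *Lyz2*. The 358 cells led by *Cxcl14*, *Zim1* and *Gdf10* had the highest *Igf1* (942 CPM), *Igfbp4* (1486 CPM) and *Igfbp7* (1198 CPM). The 801 cells led by *Edn1*, *Krtdap* and *Akr1c18* had the lowest *Igf1* (108 CPM) and the highest *Igfbp5* (2288 CPM) and *Igfbp6* (1007 CPM). In 647 cells led by *Col7a1*, *Tagln* and *Acta2*, genes of contractile cells and of basement membrane, *Igfbp4* (177 CPM), *Igfbp5* (331 CPM) and *Igfbp6* (120 CPM) were lowest. Of the 244 *Igfbp2* UMIs of the class, 108 were in these *Col7a1* cells (14.4 CPM). A further 109 were in 868 cells led by *Fgl2*, *Col6a5* and *Eln* (12.6 CPM). On Day 3, 62 cells led by *Scara5* and *Gas6* were at 282 CPM of *Igf1* and 642 CPM of *Igfbp4*, against 57.3 and 137 CPM in dividing cells led by *Top2a*.

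**Figure D4:**
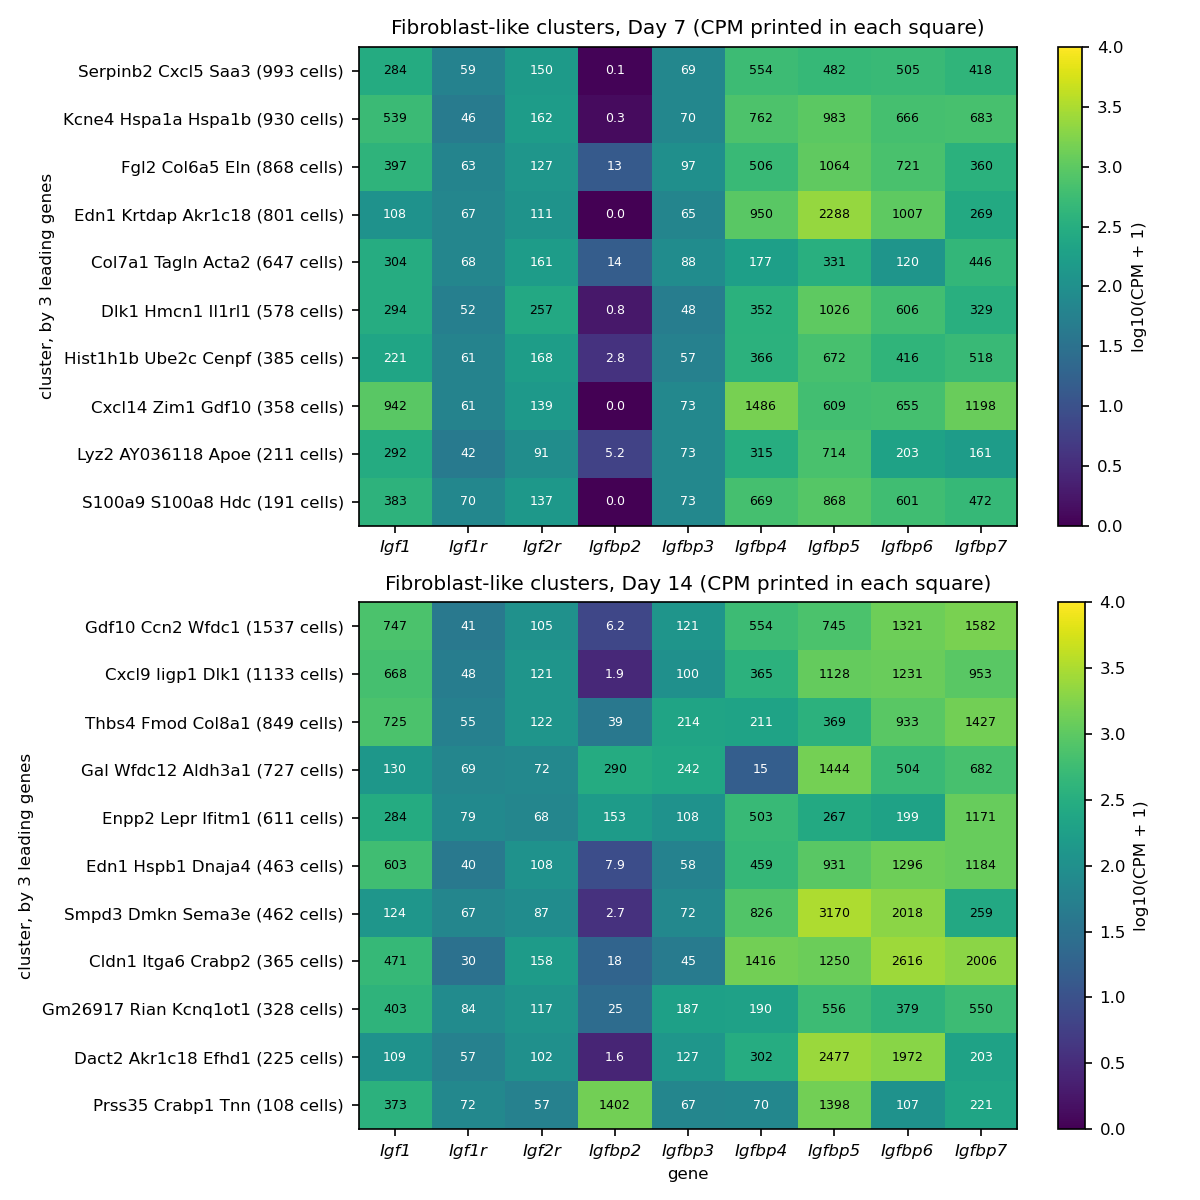
Level of each gene in CPM (number in each square, color on a log10 scale of CPM + 1) in clusters of fibroblast-like cells on Day 7 (top) and Day 14 (bottom), each named by 3 leading genes. *Igfbp2* stands out on Day 14 in the clusters led by *Prss35*, *Gal* and *Enpp2* (1402, 290, and 153 CPM), and *Igfbp5* in that led by *Smpd3* (3170 CPM).

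Since the days differed in which clusters they held, the ratios were also taken within clusters found on both days. These were the clusters of the 3 libraries together, not those made for each day above, even where leading genes are shared. The *Tnn* cluster here held 110 cells on Day 14, at 17.7 CPM of *Igfbp2*. It is not the cluster of 108 cells led by *Prss35*, at 1402 CPM. From Day 3 to Day 7, in the cluster led by *Car4*, the log2 ratios were 1.35 for *Igf1*, −2.09 for *Igfbp3*, 0.69 for *Igfbp4*, 3.03 for *Igfbp5*, 1.28 for *Igfbp6* and 1.46 for *Igfbp7*. All kept the direction of the class, and *Igfbp4* was no longer past 2-fold. From Day 7 to Day 14, *Igfbp6* was higher in the clusters led by *Mgp* (0.98), *Tnn* (1.49) and *Efhd1* (1.27), and *Igfbp7* likewise (0.74, 1.43, and 0.38). *Igf1* (−0.15, 0.45, and −0.62) and *Igfbp4* (−1.37, 0.69, and −0.17) differed in sign between these clusters. *Igfbp2* was at 0.203 and 14.9 CPM on Days 7 and 14 in the *Mgp* cluster (1 and 600 UMIs; log2 ratio 6.20, 3.72–11.51, from a mean under 10 CPM), at 4.46 and 17.7 CPM in the *Tnn* cluster (1.99, 1.22–2.69), and at 0 and 1.69 CPM in the *Efhd1* cluster. The cluster led by *Gal* and *Cdh4*, with 349 CPM of *Igfbp2* in its 1411 cells of Day 14, had only 33 cells on Day 7, too few for a ratio. A cluster of low depth led by *AY036118* and *Lars2* (180 and 162 cells) had log2 ratios of 1.54 for *Igfbp6*, 1.94 for *Igfbp7*, 0.37 for *Igf1* (−0.10 to 0.83) and −0.31 for *Igfbp4* (−0.80 to 0.17), and *Igfbp2* at 0 and 15 UMIs.

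In macrophage-like clusters, likewise made for each day, the highest value of *Igf1* and that of *Igfbp4* fell in the same cluster on Days 7 and 14, and the highest *Igf2r* in another. On Day 7, 1275 cells led by *Lyve1*, *Fcna* and *Cd163*, genes of resident macrophages, had the highest *Igf1* (627 CPM) and *Igfbp4* (516 CPM), with *Igf2r* at 13.9 CPM. *Igf1* was at 36.4 CPM in cells led by the monocyte gene *Ly6c2* and at 30.4 CPM in cells led by *Retnla*. *Igf2r* was highest, at 84.5 CPM, in 735 cells led by *Mmp12* and *Fabp4*, and at 76.9 CPM in cells led by *Arg1*. The *Mmp12* cells were at 274 CPM of *Igf1* but only 60.9 CPM of *Igfbp4*, below the 152 CPM of the *Arg1* cells, whose *Igf1* was at 132 CPM. On Day 14 the 115 cells led by *C6* and *Cd209f* had the highest values of *Igf1* (569 CPM, 498–646) and *Igfbp4* (422 CPM, 362–490). These intervals include the 718 cells led by *Hspa1b* (537 and 383 CPM) and, for *Igf1*, the 962 cells led by *Ccl7* (518 CPM). *Igf2r* was at 4.88 CPM in the *C6* cells, from only 2 UMIs. It was at 5.57 CPM in the *Hspa1b* cells and 5.55 CPM in the 354 cells led by *Dcn*.

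Among the clusters of the 3 libraries together, the lower *Igf2r* of Day 14 was not seen in each that held cells of both days. Its log2 ratio from Day 7 to Day 14 was −1.65 in cells led by *Cd163* and *Cbr2* (−2.72 to −0.72), −0.51 in those led by *Slamf7* and *Il10* (−1.11 to 0.10) and 0.13 in those led by *Syngr1* and *Cd36* (−0.36 to 0.58). In the other 3 clusters with at least 50 cells on both days it was −1.90 in cells led by *Gm26917* and *Hmox1* (3 UMIs on Day 14, −4.24 to −0.25), −0.18 in those led by *Ly6c2* (−1.56 to 0.96) and 0.14 in those led by *Retnla* (−0.39 to 0.70). The cluster led by *Syngr1*, which had the highest *Igf2r* of the 6 on Day 7 (61.8 CPM), held 4304 cells on Day 7 and 134 on Day 14. Of the clusters made for Day 7 alone, one of 961 cells, led by *Postn*, *Col1a2* and *Sparc*, had a median of only 846 UMIs and 3561 CPM of *Col1a1*. Its leading genes held the fibroblast markers *Col1a1*, *Col1a2* and *Col3a1* and no macrophage marker. Its *Igfbp3* (142 CPM) and *Igfbp5* (106 CPM) were the highest among clusters of that day placed in the macrophage-like class. A further 98 cells of Day 7 were led by the neutrophil markers *S100a9* and *S100a8*, and 354 cells of Day 14 by *Dcn*, *Sparc* and *Col1a2*.

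**Figure D5:**
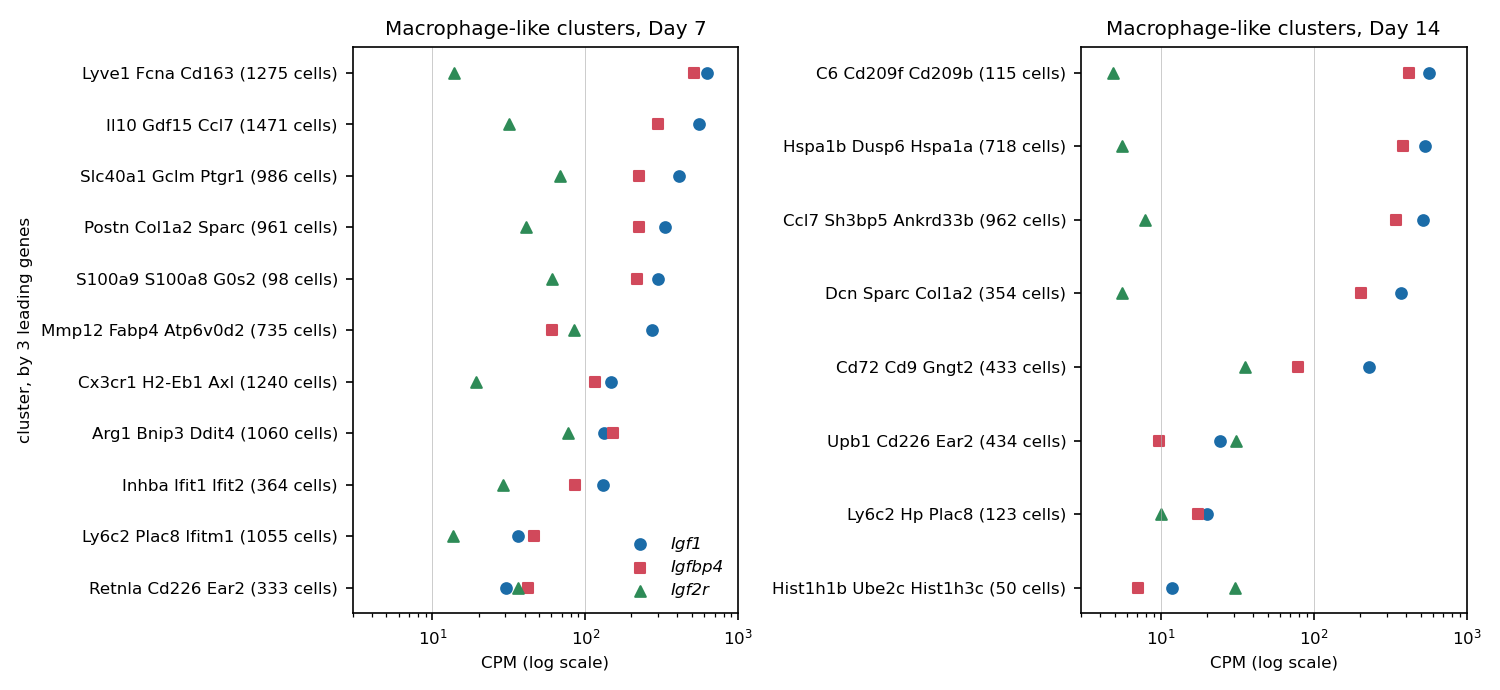
Levels of *Igf1* (circles), *Igfbp4* (squares) and *Igf2r* (triangles) in CPM on a log axis in clusters of macrophage-like cells, ordered by *Igf1*, on Day 7 (left) and Day 14 (right). *Igf1* and *Igfbp4* have their highest values in the cluster led by *Lyve1* on Day 7 (627 and 516 CPM) and that led by *C6* on Day 14 (569 and 422 CPM, within counting error of that led by *Hspa1b*). *Igf2r* is at 13.9 CPM in the *Lyve1* cluster and at 4.88 CPM (2 UMIs) in the *C6* cluster.

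The other genes of the pathway were counted by the same rule. Of 22 genes listed (signaling proteins, *Igfbp1*, proteases of the binding proteins and the growth hormone receptor among them), 14 reached a mean of 10 CPM in fibroblast-like cells. From Day 3 to Day 7, none was at least 2-fold lower (8.99% of all genes were) and 4 were at least 2-fold higher (4.44% of all genes): *Ghr*, the growth hormone receptor (log2 ratio 1.53), *Htra1*, a secreted protease that cuts binding proteins (1.27), the docking protein gene *Irs1* (1.22) and the transcription factor gene *Foxo1* (1.04). From Day 7 to Day 14 none of 14 was past 2-fold in either direction, where 2.3% of all genes were higher and 3.56% lower. The 3 highest ratios were those of *Htra1* (210 to 372 CPM, 0.83), *Foxo1* (24.97 to 40.4 CPM, 0.69) and *Irs2* (47.8 to 74.8 CPM, 0.65). The 3 lowest were those of *Grb10*, an adaptor that damps receptor signaling (267 to 163 CPM, −0.71), the kinase gene *Akt1* (85.9 to 74.1 CPM, −0.21) and the adaptor gene *Shc1* (42.5 to 38.5 CPM, −0.14). In macrophage-like cells none of 10 genes was past 2-fold from Day 3 to Day 7 (2.34% of all genes higher, 5.3% lower) and none of 11 from Day 7 to Day 14 (2.43% and 3.36%).

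The *Igfbp3*-rich Bmp4 mesenchymal-like cells also held other genes of the pathway on Day 14. They were at 708 CPM of *Pappa2* and 111 CPM of *Pappa*, proteases that free IGFs from binding proteins, 197 CPM of *Stc2*, an inhibitor of these proteases, 52.9 CPM of the ligand gene *Igf2* and 463 CPM of *Pik3r1*, a subunit of the PI3 kinase. Their *Igfbp4* was at 329 CPM (305–355) and their *Igfbp7* at 509 CPM (479–541). *Igfbp6*, at 37.4 CPM (29.5–46.7), was low there beside the 1192 CPM of fibroblast-like cells.

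Across 61 profiles (each a cluster within a library with at least 50 cells), the genes most like each member were listed by Pearson's r of log2(CPM + 1) among 8282 genes. The profiles share libraries, depth and carried-over RNA, so r is a description. Among the closest genes were *Gas6*, *Timp2* and *Igfbp4* for *Igf1* (0.84, 0.80, and 0.78), *Il1rap* and *N4bp2* for *Igf1r* (0.83 and 0.73), and *Calu*, *Lamc1* and *Col5a1* for *Igf2r* (0.74, 0.71, and 0.71). For the binding proteins they were *Cilp*, *Krt10* and *Angptl1* for *Igfbp2* (0.70, 0.69, and 0.69), *Stc2*, *Ccn1* and *Apcdd1* for *Igfbp3* (0.83, 0.83, and 0.82), and *Rnase4*, *Serpinb6a* and *Cd276* for *Igfbp4* (0.81, 0.81, and 0.78). *Nrep*, *Col6a1* and *Pcolce* were closest to *Igfbp5* (0.95, 0.94, and 0.94), *Mfap5*, *Has1* and *Cthrc1* to *Igfbp6* (0.90, 0.90, and 0.88), and *Nid1*, *Tm4sf1* and *Ppic* to *Igfbp7* (0.92, 0.92, and 0.92). Among the members themselves the highest r was that of *Igfbp5* with *Igfbp7* (0.89), followed by *Igf1* with *Igfbp4* (0.78), and the lowest was that of *Igf1* with *Igf1r* (−0.10).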

How the data were processed

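Skin wound cells were profiled with the Chromium 3' v3.1 chemistry and sequenced on a DNBSEQ-G400RS instrument. The authors made the deposited counts with Cell Ranger 6.0.0 on mm10 (from the submitters' processing notes), which hold raw UMI counts for each gene in each barcode. Whether the injury was excisional, as the methods say, or incisional, as a label says, does not change a value here. A barcode was kept if it had 200 genes and 500 UMIs or more, with no more than 10% of them mitochondrial. Simulated doublets scored each barcode, and those scoring highest were removed up to 0.5 of an expected 0.8% per 1000 cells (92, 1978, and 962 on Days 3, 7, and 14). The libraries were clustered together (2000 variable genes, 30 components, 15 neighbors, Leiden resolution 1 with leidenalg 0.10.2, and 0.6 within a class and day), without 153 genes that included the members, the pathway list, and mitochondrial and ribosomal genes. The 38 clusters were named from marker lists. The rule for naming was changed once the clusters had been looked at, but with no member level computed yet. Counts were summed by class with numpy 2.4.6, pandas 2.3.3 and scipy 1.17.1, and nearest neighbors were found with scikit-learn 1.9.0.

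CPM had exact Poisson intervals, ratios exact conditional binomial intervals, and shares Clopper-Pearson intervals. Past 2-fold means a log2 ratio of at least 1 or at most -1 with a mean of at least 10 CPM over both sums. There was no test, as cells are not replicates. The ratio and its interval were tested on simulated Poisson counts, which held no carried-over RNA and no difference between libraries. The members, marker and pathway lists were chosen with earlier results of these data known. All 9 members are named throughout, with the 3 highest and 3 lowest pathway genes of Day 14 over Day 7 in fibroblast-like cells and 3 leading genes per cluster. Pathway genes past 2-fold from Day 3 to Day 7, those given for Bmp4 mesenchymal-like cells, and the clusters singled out were chosen after their values were seen. Alternatives changed filters, doublets, scaling, clustering and thinning. Promoter windows came from RefSeq, and protein sequences were not used here. One gene among those most like *Igf1r* is not reported here.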

Additional observations from a re-analysis of the deposited data

Results flagged for a closer look

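Among classes with at least 50 cells on both days, the direction between days was opposite for a few genes, and each of the 2 differences was past 2-fold with an interval clear of 0. These differences between classes were not tested, since each day had 1 library. From Day 3 to Day 7, the log2 ratio of *Igfbp3* was 1.52 in neutrophil-like cells (7 and 22 UMIs, 5.94 and 17.0 CPM) and −1.69 in fibroblast-like cells. From Day 7 to Day 14, that of *Igf2r* was 1.30 in dendritic-like cells (28 and 47 UMIs, 7.88 and 19.4 CPM), against −1.19 in macrophage-like and −1.56 in pericyte-like cells. Over the same days *Igfbp3* was at 1.09 in macrophage-like, 3.50 in dendritic-like (12 and 93 UMIs, 3.38 and 38.3 CPM) and 2.02 in T cell-like cells (3 and 13 UMIs, 8.02 and 32.4 CPM), against −1.35 in endothelial-like cells. The neutrophil-like, dendritic-like and T cell-like values reached the mean of 10 CPM only through the later day, so they had to differ, and no direction is drawn from them. Fibroblast transcripts and the *Igfbp3*-rich class were more abundant on Day 14, and their part in the values of immune cells was not tested.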

How the results depend on the processing

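No paired analysis was possible because each day had 1 library, and for the same reason no library could be left out of a comparison. Over 15 settings no called direction was reversed, and the count of members past 2-fold stayed within 1.5 times in all settings but one. Restricting to cells of 2000 to 30000 UMIs gave a count of 1 (*Igf2r*) in macrophage-like cells from Day 7 to Day 14, against 2, and the cause was not tested. The counts ran from 5 to 6 (Day 3 to Day 7) and 2 to 4 (Day 7 to Day 14) in fibroblast-like cells, and from 3 to 4 and 1 to 3 in macrophage-like cells. After subtraction, *Igfbp6*, lower and passing only through Day 3, stood in place of *Igfbp5* in macrophage-like cells. For fibroblast-like over macrophage-like cells the counts ran from 7 to 8, 6 to 6, and 6 to 7 on Days 3, 7, and 14. Of the settings, 4 were chosen after seeing the data: the UMI limits, leaving out clusters led by markers of another class (in 2 ways) and subtracting the fibroblast profile scaled to *Col1a1* from macrophage-like cells. The log2 ratio of *Igfbp4* in fibroblast-like cells (Day 3 to Day 7) ran from 0.43 to 1.69, that of *Igfbp2* (Day 7 to Day 14) from 3.91 to 4.79, and that of *Igfbp3* in macrophage-like cells (Day 7 to Day 14) from 0.80 to 2.26. The median ratio of all genes lay 0.11 to 0.21 below 0 between days, and scaling to it raises each ratio by about that much. With a limit of 1 UMI in each sum in place of the mean of 10 CPM, 26.6%, 22.7%, 22.7%, and 20.2% of all genes were past 2-fold in either direction in the 4 comparisons of days (fibroblast-like, then macrophage-like cells), against 13.4%, 5.86%, 7.63%, and 5.78%. Among log2 ratios of single members under planned settings, 495 kept their value within counting error and 176 did not. Shares of cells with a UMI depend on the depth: with 1000 UMIs per cell or all UMIs in place of 500, 113 moved beyond their interval and 31 did not, and the share for *Igf1* in fibroblast-like cells of Day 3 was 3.28% at 500 UMIs, 8.91% at 1000 and 57.6% at full depth. The log2 ratio of *Igfbp6* in macrophage-like cells (Day 3 to Day 7) was 0.03, and −2.42 after subtraction of the fibroblast profile. With 1 library per day, the spread between wounds is not known for any value, and values of small groups (12 endothelial-like cells on Day 3, 24 neutrophil-like cells on Day 14) also have wide counting error.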
